A study of Mus musculus with 14 samples.

Results

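The genes described here are 10 genes of the integrated stress response and of serine and one-carbon metabolism, taken by symbol from the 19940 genes of the table: Atf4, Atf5, Ddit3, Trib3, Asns, Chac1, Psat1, Phgdh, Shmt2 and Mthfd2. They were measured by RNA sequencing in monocyte-derived macrophages that had entered the mouse brain and spinal cord. The cells were taken at peak EAE (experimental autoimmune encephalomyelitis), an induced autoimmune disease used to model multiple sclerosis. Irradiated hosts carried marrow of 2 donors in equal parts. The wild-type donor (wt) carried CD45.1, and the mCAT donor carried CD45.2, CCR2creERT2/+ and mcat lsl/wt, that is, a tamoxifen-inducible Cre recombinase at Ccr2 and a Cre-dependent catalase targeted to mitochondria. Every sample of both genotypes is labelled Tamoxifen. Macrophages of each donor were sorted by the CD45 allele, giving 7 wt and 7 mCAT libraries. The catalase, the recombinase and the CD45 allele were carried together, so their contributions cannot be told apart. The label material used here gives neither ages nor the strain of the hosts.

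The integrated stress response starts with kinases that phosphorylate the initiation factor eIF2, which slows most translation while the mRNA of the transcription factor ATF4 is translated more. ATF4 and its partners then switch on genes of amino acid synthesis, amino acid uptake and tRNA charging, and, through CHOP (Ddit3), genes of cell death. Mitochondrial dysfunction is a known trigger, and the serine and mitochondrial folate enzymes are among the known ATF4 targets. Because ATF4 is controlled largely at translation, its mRNA level does not report its protein level.

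The wt libraries held an estimated 16.6 M reads (wt 7) to 43.5 M, the mCAT libraries 27.6 M to 47.1 M. Values are given as normalised counts, the deposited log2 values brought back to a linear count scale. Cat, the catalase gene of the table, ran from 1042 to 2806 normalised counts in wt and from 1739 to 3933 in mCAT libraries, so the genotypes overlapped (log2 difference 0.39, exact permutation p = 0.128, 2-sided). Within 6 pairs the difference was 0.29 with p = 0.0312 by exact sign flips, the lowest value open to 6 pairs. Without mCAT 4 the exact permutation p over all libraries was 0.0490. Whether reads of the transgene were counted under Cat is not stated, so Cat checks the labels only in part. Macrophage markers were abundant in all libraries, all 9 of them passing the filter on low values, with sums from 337049 to 1852260 in wt and 484265 to 1972600 in mCAT. T cell markers, of which 6 of the 7 in the table passed, summed to 216 to 759 in wt and 132 to 289 in mCAT. Only Cd8a did not pass, and it was at 0 in 5 libraries. Of 6 microglia markers 5 passed, among them Tmem119, from 550.5 to 3500.3, and P2ry12, from 563 to 1453 normalised counts. Siglech, which also passed, ran from 46.8 to 324. Sall1 did not pass, at 1.58 to 36.2. These are bulk libraries, so fewer cells expressing a gene and less RNA per cell cannot be told apart.

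None of the genes passed the test between the genotypes, while the level of Trib3 varied between pairs of libraries alike in both genotypes. Trib3 was the only one of the 9 whose correlation between partner libraries passed adjustment. That test is against no relation, and over all genes tested Pearson's r between partner libraries had a median of 0.482. In the limma fit over 12096 genes, 0 of the 9 genes that passed the filter were called at an adjusted p under 0.05, where 0.198% of all genes tested were (0.0827% higher and 0.116% lower in mCAT). At an unadjusted p under 0.05 there were 0 of 9 genes, against 5.37% of all genes. Of the 9, 7 lay below 0 and 2 above (mCAT minus wt), with a median log2 difference of -0.12, beside a median of -0.00116 over all genes tested. The library codes give 6 pairs of wt and mCAT libraries with a shared stem such as C1_5. These 12 libraries were treated as pairs; the labels do not say what a stem is. A fit that paired them called 38 genes in place of 24 (0.314% of those tested, 0.165% higher and 0.149% lower in mCAT) and again 0 of the 9. At an unadjusted p it held 1 of 9, against 9.24% of all genes.

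**Figure D1:**
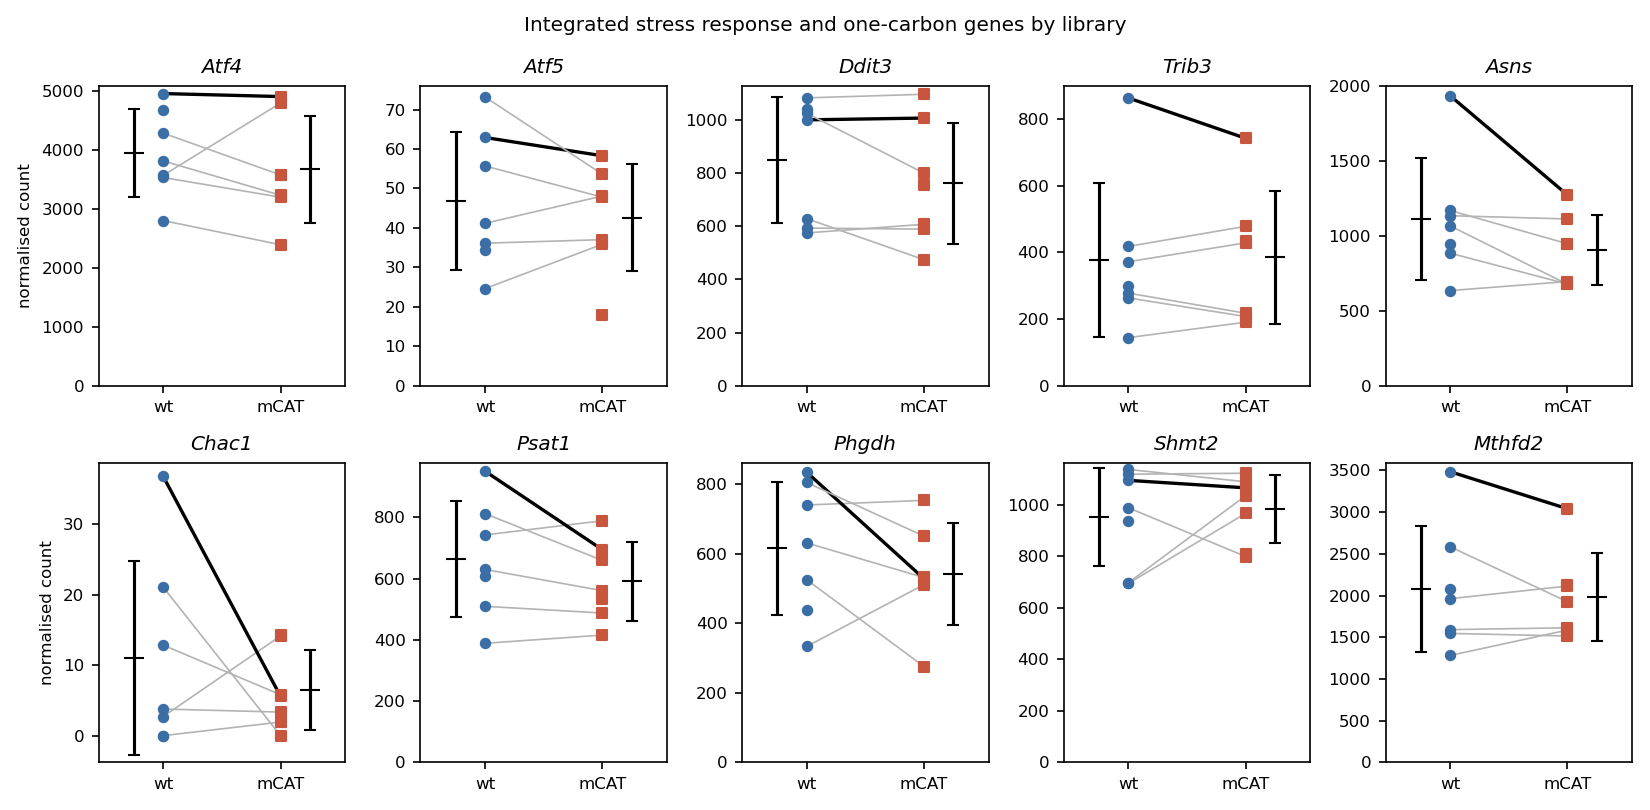
Normalised counts of the 10 genes (vertical axis, each panel with its own scale) in the 7 wt (circles) and 7 mCAT (squares) libraries, with mean and SD beside each group; grey lines join libraries that share a code stem and the black line joins those of stem C1_5. The genotypes overlap in every panel, and the black line is highest in both genotypes for Atf4, Trib3, Asns and Mthfd2.

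Of the transcription factors, Atf4 encodes the central regulator. It ranged from 2804 in wt 7 over a median of 3815 to 4957 normalised counts in wt 4, and from 2394 in mCAT 7 over 3578 to 4906 in mCAT 4. The lowest library of each genotype and the highest of each came from the same stems, C2_4 and C1_5. Its means were 3950.3 ± 743 in wt and 3669.9 ± 899 in mCAT (SD, n = 7 each), a log2 difference of -0.12 with a 95% interval of -0.45 to 0.22 (limma adjusted p = 0.924). Ddit3 encodes CHOP, a factor that promotes death of cells under lasting stress. It ran from 575 in wt 2 over 999.8 to 1082 in wt 5, and from 474 in mCAT 7 over 757 to 1096 in mCAT 5. In the 6 pairs it formed a low set (C1_2, C1_3 and C2_4, from 474 to 629) and a high set (C1_5, C2_1 and C2_2, from 799 to 1096), each holding both genotypes. Its log2 difference between genotypes was -0.14 (95% interval -0.53 to 0.25, limma adjusted p = 0.921). Atf5, a related factor linked to the mitochondrial unfolded protein response, was low in all libraries, from 24.6 in wt 5 to 73.2 in wt 7 and from 17.8 in mCAT 3 to 58.3 in mCAT 4. Its log2 difference was -0.05, with a 95% interval of -0.32 to 0.22.

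Trib3 and Asns are classical ATF4 target genes, and Trib3 varied most of the 9. Trib3 encodes a pseudokinase that feeds back on ATF4 activity. It ran from 145 in wt 7 to 863 normalised counts in wt 4, and from 191 in mCAT 7 over 429 to 742 in mCAT 4. Its SD over the 14 libraries was 0.56 on the log2 scale, where the median gene tested had 0.29. The next highest wt library, wt 5, had 418. The means were 377 ± 231 in wt and 386 ± 199 in mCAT, and the log2 difference was 0.04 (95% interval -0.54 to 0.62, limma adjusted p = 0.986). It was higher in mCAT in 3 of the 6 pairs and lower in 3, and its sign turned to -0.02 in the paired fit. Asns encodes asparagine synthetase. It ranged from 636 in wt 6 over 1067 to 1936 in wt 4, and from 679 in mCAT 7 over 943 to 1274 in mCAT 4. Asns had the smallest p of the set. It averaged 1111 ± 406 in wt and 905 ± 234 in mCAT, a log2 difference of -0.24 (95% interval -0.63 to 0.16, limma adjusted p = 0.879), with mCAT below wt in 5 of the 6 pairs. With pairing the log2 difference was -0.28 (95% interval -0.51 to -0.04, unadjusted p = 0.0233, limma adjusted p = 0.479), so it did not pass over all genes.

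Chac1 encodes an enzyme that degrades glutathione and is a target of ATF4 and CHOP. It was near the limit of measurement and did not pass the filter, with at least 10 normalised counts in 5 of 14 libraries. It was at 0 in wt 1, wt 7 and mCAT 5, where 3 reads correspond to 3.28, 7.82 and 2.68 normalised counts. In 9 libraries, 4 wt and 5 mCAT, it stood above the worth of 3 reads. The highest values were 36.8 in wt 4 and 21.1 in wt 5, and mCAT libraries reached 14.3 in mCAT 3. In a fit with no filter its log2 difference was -0.06 (95% interval -0.40 to 0.28, limma adjusted p = 0.974). At such low values the deposited log2 scale compresses differences. The interval therefore does not bound the fold difference of Chac1 in normalised counts between the genotypes.

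Phgdh, Psat1, Shmt2 and Mthfd2 act in sequence from serine synthesis to the mitochondrial folate cycle, and none passed the test between the genotypes. Phgdh encodes the first enzyme of serine synthesis from a glycolytic intermediate. It ran from 334 in wt 6 over 632 to 835 in wt 4, and from 276 in mCAT 5 over 532 to 754 in mCAT 2. Its log2 difference was -0.15 (95% interval -0.55 to 0.25, limma adjusted p = 0.920). Psat1, the next enzyme of that route, ran from 389 in wt 6 over 629.9 to 951 in wt 4, and from 416 in mCAT 6 over 561 to 789 in mCAT 1. The lowest library of each genotype came from stem C2_2, and the log2 difference was -0.12 (95% interval -0.47 to 0.22, limma adjusted p = 0.923). Shmt2 encodes the mitochondrial serine hydroxymethyltransferase, which passes a carbon unit from serine to folate. It had the narrowest range over the 14 libraries, 1.64-fold, from 694 in wt 7 over 987 to 1136 in wt 2 and from 798 in mCAT 5 over 1035 to 1122 in mCAT 2. Its log2 difference of 0.05 (95% interval -0.22 to 0.32) was -0.07 within the C1 code series and 0.22 within C2. Mthfd2 encodes the mitochondrial folate dehydrogenase that follows Shmt2. It ran from 1282 in wt 6 over 1963 to 3485 in wt 4, and from 1515 in mCAT 1 over 1926 to 3041 in mCAT 4. Its log2 difference was -0.03 (95% interval -0.43 to 0.38, limma adjusted p = 0.988).

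**Figure D2:**
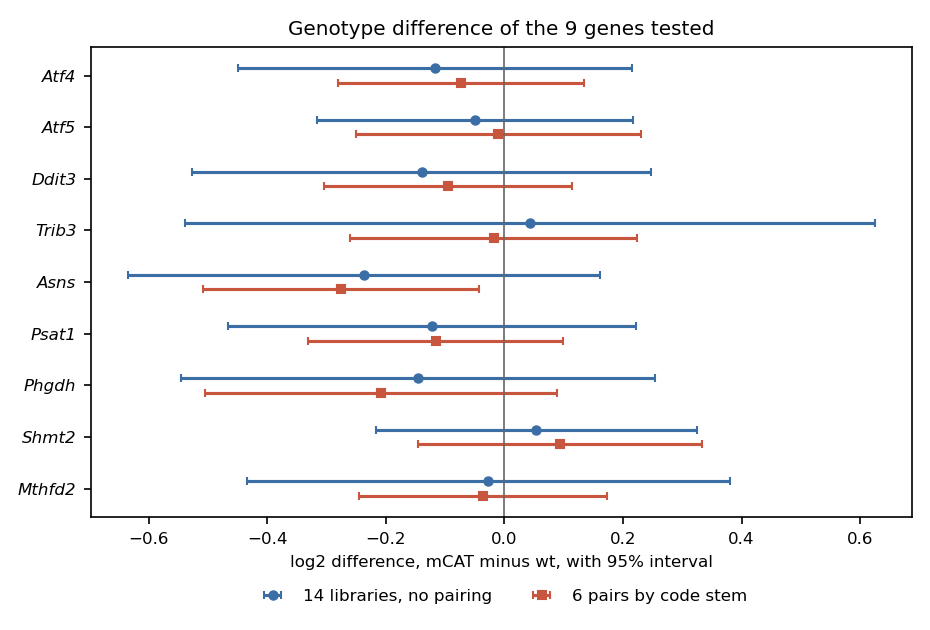
Log2 difference (mCAT minus wt) of the 9 genes tested, with its 95% interval, in the fit of all 14 libraries (circles) and in the fit of 6 pairs (squares). The intervals hold 0 except that of Asns in the paired fit, which runs from -0.51 to -0.04.

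The intervals bound what these libraries can show. Without pairing, the widest was that of Trib3 and the narrowest that of Atf5, whose values lie low on a scale that compresses differences of scarce transcripts. As log2 of the normalised count plus 1, the interval of Atf5 was -0.84 to 0.58. With pairing all 9 intervals lay between -0.51 and 0.33 on the log2 scale. A p that misses the threshold does not show that the genotypes were alike.

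Values of partner libraries were compared gene by gene. Across the 6 stems, Trib3 in wt and in mCAT macrophages had Pearson's r = 0.935 and Spearman's rho = 1, each with an exact permutation p of 0.00278, the smallest that 6 pairs allow, and of 0.0250 after adjustment over the 9 genes. Without the 2 stems farthest from the median, C1_5 and C2_4, r was 0.992. The stems were in the same order in both genotypes, from C2_4 (145 and 191 normalised counts in wt and mCAT) to C1_5 (863 and 742). Mthfd2 had r = 0.904 (exact permutation p = 0.0250, adjusted 0.0562) and rho = 0.886 (p = 0.0333, adjusted 0.100), with r = 0.811 without C1_5 and C2_1. Psat1 had r = 0.897 (exact permutation p = 0.0222, adjusted 0.0562) and rho = 0.829 (p = 0.0583, adjusted 0.105), with r = 0.842 without C1_5 and C2_2. Atf5 had r = 0.897 (exact permutation p = 0.0194, adjusted 0.0562) and rho = 0.886 (p = 0.0333, adjusted 0.100), with r = 0.868 without C2_1 and C2_4. These 3 did not pass the adjustment.

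Asns and Atf4 followed less closely. Asns had r = 0.815 (exact permutation p = 0.0333, adjusted 0.0600) and rho = 0.714 (p = 0.136, adjusted 0.153), with r = 0.730 without C1_5 and C2_2. For Atf4 r was 0.743 (exact permutation p = 0.0639, adjusted 0.0857) and rho 0.829 (p = 0.0583, adjusted 0.105). That r rests on C1_5 and C2_4, without which it was -0.207. Phgdh (r = 0.430, exact permutation p = 0.394, adjusted 0.444; rho = 0.543, p = 0.297, adjusted 0.297; 0.152 without C2_1 and C2_2) had the next to lowest r. For Shmt2 r was 0.249 (exact permutation p = 0.678, adjusted 0.678), rho 0.771 (p = 0.103, adjusted 0.153) and r without C2_2 and C2_4 0.976. No r is given for Ddit3, whose pairs fell into 2 sets. The median of the same r over all 12096 genes was 0.482, with quartiles at 0.103 and 0.750, so a positive r was common over all genes. The stems were themselves accepted as pairs because partner libraries correlated over all genes in these data. The exact permutation p, that of Trib3 included, tests against no relation and not against this background. Each code series, C1 or C2, holds 3 pairs, too few for a value of its own.

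**Figure D3:**
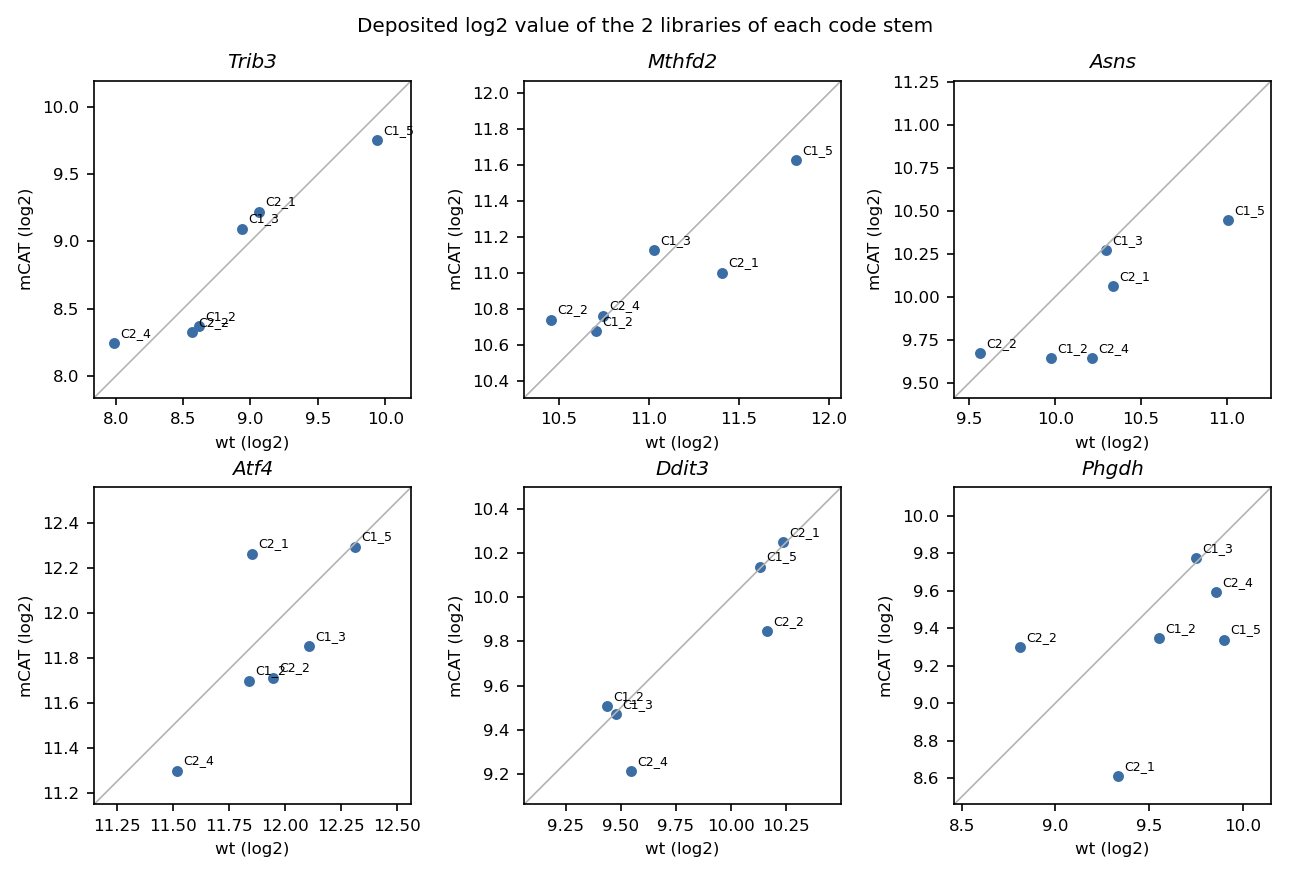
Deposited log2 value in the mCAT library (vertical axis) against that in the wt library (horizontal axis) of each of the 6 code stems for 6 genes, with the line of equal values. Trib3 lies along the line in a single order of stems, and the points of Phgdh lie scattered about it.

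Stem C1_5, the libraries wt 4 and mCAT 4, stood highest for 4 of the 9 genes. Atf4, Trib3, Asns and Mthfd2 were highest of their genotype in both of its libraries, as were 6.14% of all genes tested. Wt 4 was the highest wt library for 6 of the 9 genes and mCAT 4 the highest mCAT library for 5, against 14.05% and 17.0% of all genes. Psat1 and Phgdh were highest in wt 4 but not in mCAT 4, where Phgdh stood at 529 against 835 in its partner. At the other end, Atf4 and Trib3 were lowest of their genotype in both libraries of C2_4, as were 4.03% of all genes tested. Of these libraries, wt 7 was the shallowest of all 14, at 16.6 M reads, and mCAT 7 held 42.2 M. In depth the C1_5 libraries differed from each other, at 43.5 M reads in wt 4 and 27.6 M in mCAT 4, the deepest wt and the shallowest mCAT library.

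**Figure D4:**
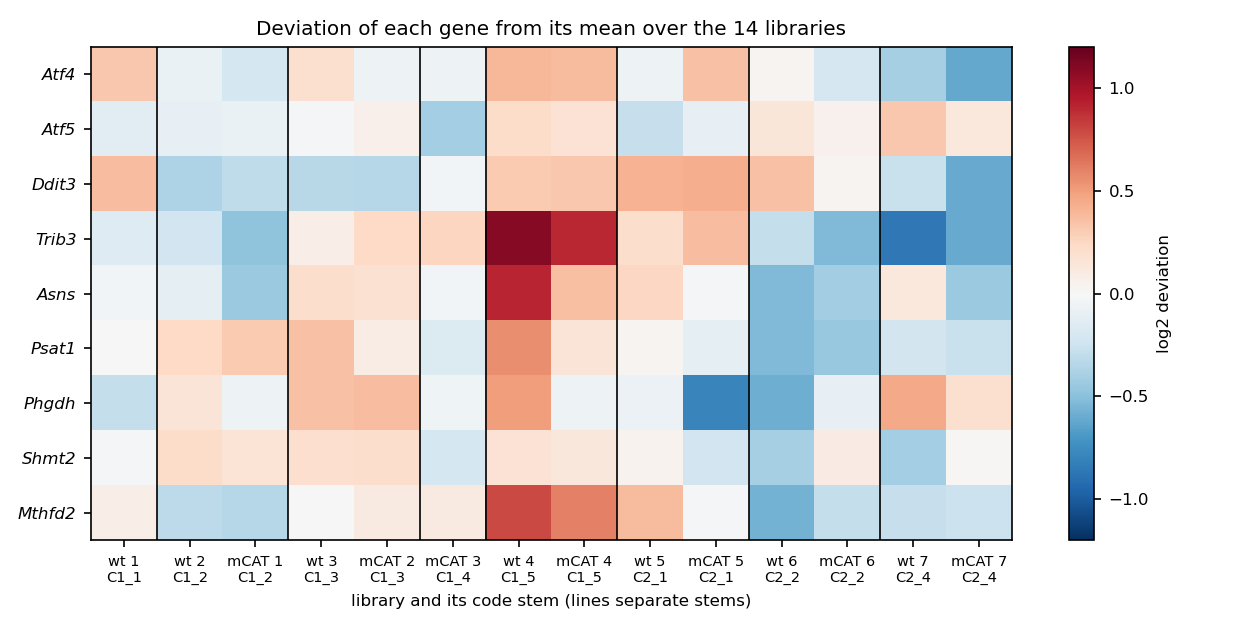
Log2 deviation of each of the 9 genes (rows) from its mean over the 14 libraries (columns, ordered by code stem). Trib3, Asns and Mthfd2 are above their means in wt 4 and mCAT 4, and Trib3 is below its mean in both libraries of C2_2 and of C2_4.

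Over the 14 libraries Mthfd2, Atf4 and Asns varied most with Trib3. Psat1 (r = 0.553, rho = 0.508) and Ddit3 (r = 0.535, rho = 0.420) did so less, without a sharp division. Correlations are given as a description, without p, because 12 of the 14 libraries are paired and all share their depth and cell make-up between genes. Asns and Mthfd2 had r = 0.887 (rho = 0.833), Trib3 and Mthfd2 r = 0.879 (rho = 0.780), Atf4 and Trib3 r = 0.795 (rho = 0.851) and Trib3 and Asns r = 0.771 (rho = 0.688). Without the C1_5 pair these were 0.78, 0.71, 0.70 and 0.53. Psat1 went most with Shmt2 (r = 0.692, rho = 0.758). Ddit3 went with Atf4 (r = 0.711, rho = 0.582), but against Phgdh (r = -0.595, rho = -0.684), and without C1_5 the latter was -0.799. Of the 36 relations among the 9 genes, 26 were above 0 and 12 were at least 0.5, and 6 were at least 0.5 without C1_5. Atf5 had no relation of at least 0.5 with another of the genes. Without C1_5 it went against Trib3 (r = -0.697) and Mthfd2 (r = -0.631).

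Upstream sequence is shown for Trib3, for Atf4, Asns and Mthfd2, which varied most with it, and for Chac1. The aim was to place the element through which ATF4 and its C/EBP partners are known to act, the C/EBP-ATF response element. RefSeq sequence around the start sites, on GRCm38.p6, was at hand for 10 of the 10 genes in 12 windows of 300 bases (250 before and 50 after the start). The core searched for was TGATGNAA on both strands, and all motifs were chosen after values of these genes had been seen. It occurred in 3 of the 10 genes, Asns, Chac1 and Trib3, and in 3.97% of 32851 windows. The CCAAT box (CCAAT, both strands), bound by other factors, occurred in 7 of the 10 genes and in 37.4% of windows. The full cyclic AMP response element TGACGTCA (1.79% of windows) and the E-box CACGTG (7.15%) occurred in none, and no overlap between the core and the other motifs was seen. A match describes letters and is not evidence of binding, and its absence concerns only this window. The 200 bases before the start are given on the gene's strand, with matches to the core and the CCAAT box in capitals, for Asns (chr6:7693210-7693409, minus strand), Mthfd2 (chr6:83317605-83317804, minus strand), Chac1 (chr2:119351042-119351241, plus strand) and Atf4 (chr15:80254984-80255183, plus strand).
Asns: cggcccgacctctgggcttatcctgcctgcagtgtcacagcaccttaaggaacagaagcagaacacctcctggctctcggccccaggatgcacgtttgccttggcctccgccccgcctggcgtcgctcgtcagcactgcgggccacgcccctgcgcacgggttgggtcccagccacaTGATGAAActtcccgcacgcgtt
Mthfd2: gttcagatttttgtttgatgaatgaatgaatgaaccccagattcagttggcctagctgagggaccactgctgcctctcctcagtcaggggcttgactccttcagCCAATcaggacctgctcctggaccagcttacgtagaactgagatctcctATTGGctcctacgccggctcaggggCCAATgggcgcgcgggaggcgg
Chac1: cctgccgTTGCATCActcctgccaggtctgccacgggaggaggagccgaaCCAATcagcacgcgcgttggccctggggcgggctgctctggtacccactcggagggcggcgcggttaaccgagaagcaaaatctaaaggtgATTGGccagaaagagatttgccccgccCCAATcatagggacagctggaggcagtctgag
Atf4: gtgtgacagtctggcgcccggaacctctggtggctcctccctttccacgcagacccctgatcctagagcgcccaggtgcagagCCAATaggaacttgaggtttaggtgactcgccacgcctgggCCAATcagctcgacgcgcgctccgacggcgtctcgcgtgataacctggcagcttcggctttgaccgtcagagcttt
In Trib3 the core begins 14 bases after the start, so only a site of 30 bases is given (chr2:152344028-152344057, minus strand).
Trib3: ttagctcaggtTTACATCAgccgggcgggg
In Asns the core begins 23 bases before the start and reads along the gene, as TGATGAAA. In Chac1 it begins 193 bases before the start, on the opposite strand. Mthfd2, which varied with Asns and Trib3, had 3 CCAAT boxes and no match to the core in this window, and Atf4 had 2 CCAAT boxes.

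Genes outside the set with the most similar pattern were taken by Pearson's r over the 14 libraries, up to 3 for Atf4, Trib3 and Mthfd2 and 1 for each of the others. Each was picked as the highest over all genes tested, so its r is high in part by that choice, and no p is given. Among the 3 most like Mthfd2 were the actin-capping protein gene Capg (r = 0.947, rho = 0.890) and the myeloid lectin receptor gene Clec5a (r = 0.940, rho = 0.934). Among the 3 most like Trib3 were Or2v1 (r = 0.919, rho = 0.886) and Card19 (r = 0.918, rho = 0.921). Without the C1_5 pair r was 0.816 for Or2v1 and 0.838 for Card19, and 0.910 for Capg and 0.904 for Clec5a. Atf4 was closest to Snapc3 (r = 0.921, rho = 0.921), to Cflar, which encodes an inhibitor of caspase 8 (r = 0.908, rho = 0.916), and to Mndal (r = 0.891, rho = 0.916). The closest to Psat1 was Timm8a1, a mitochondrial import gene (r = 0.963, rho = 0.969), and the closest to Asns was the mitochondrial ribosomal gene Mrps18b (r = 0.907, rho = 0.908). For Ddit3 it was Med31 (r = 0.902, rho = 0.807), for Atf5 Mettl9 (r = 0.913, rho = 0.899), for Phgdh Tlcd3a (r = 0.883, rho = 0.868) and for Shmt2 Kti12 (r = 0.896, rho = 0.868).

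Markers of other cells and of cell state varied over the same libraries. The mean log2 level of the 6 dendritic cell markers, all of which passed the filter, correlated with Trib3 at 0.70 and with Mthfd2 at 0.72. Their summed level ran from 352 to 1144 normalised counts in wt and from 207 to 1507 in mCAT libraries. Flt3, Zbtb46 and Cd209a were each at 0 in 1 library. The 6 microglia markers, of which 5 passed, went the other way (-0.66 with Trib3 and -0.64 with Mthfd2), summing to 17461 to 78447 in wt and 29479 to 80397 in mCAT. The 12 proliferation genes correlated at -0.74 with Atf4 and Ddit3, at -0.60 with Trib3 and at 0.53 with Phgdh, summing to 5633 to 13326 in wt and 6433 to 11011 in mCAT. The 12 genes of the early response to cell isolation correlated at 0.56 with Ddit3 and at 0.14 with Trib3. In wt 4 and mCAT 4 the summed dendritic cell markers were 859 and 801, within the range of the other libraries. Macrophage markers correlated at -0.59 with Trib3 and at -0.76 with Atf4, and their sums in wt 4 and mCAT 4 were 463104 and 484265, ranks 13 and 12 of 14 from the highest. Markers of brain cells went with Ddit3: oligodendrocyte markers at 0.79, neuron markers at 0.72 and astrocyte markers at 0.70. Of these lists 3 of 4, 3 of 3 and 3 of 3 genes passed, and Mog was at 0 in 1 library. Oligodendrocyte markers summed to 1319 to 7006 in wt, highest in wt 4, and 1408 to 4028 in mCAT. Neuron markers summed to 105 to 464 in wt and 108 to 521 in mCAT, and correlated at 0.62 with Trib3. Astrocyte markers summed to 136 to 639 and 186 to 395. Endothelial markers, 2 of 3 passing and Cdh5 at 0 in 4 libraries, summed to 113 to 776 and 172 to 1174, with 0.50 for Trib3. Neutrophil markers, 2 of 6 passing, summed to 1805 to 5069 and 1789 to 4770, with 0.30 for Trib3, and wt 4 had the highest sum. B cell and T cell markers correlated at -0.08 and -0.15 with Trib3. The part of these cells and states in the pattern of the stress genes was not tested.

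Of the wider pathway, 103 genes in 7 lists passed the filter, and none was called with or without pairing. Of all genes tested, 0.198% were called without pairing and 0.314% with it, so none among 103 genes is near that share. Among the 14 kinases and eIF2 genes the median log2 difference was 0.05, with 10 above 0. The smallest p were those of Eif2b5, a subunit of the eIF2 exchange factor (1442 ± 290 in wt, 1694 ± 314 in mCAT), and of Ppp1r15b, a cofactor of the eIF2 phosphatase (2834 ± 902 against 2281 ± 480). Ppp1r15b was lower in mCAT in all 6 pairs, with a paired log2 difference of -0.19 (unadjusted p = 0.0390, limma adjusted p = 0.516). Among 20 other ATF4 targets 10 lay above 0 and 10 below, with a median of -0.0020. The amino acid transporter genes Slc1a4 (34.5 ± 24.7 in wt, 16.7 ± 12.1 in mCAT) and Slc7a1 (451 ± 322 against 276 ± 70.9) had the smallest p there, and for both the genotypes overlapped. The 10 partner and related transcription factors had a median of 0.01, Maf (583 ± 188 against 716 ± 121) and Cebpb (2088 ± 709 against 2702 ± 820.0) having the smallest p.

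Of the 12 aminoacyl-tRNA synthetases, the enzymes that charge tRNAs, 10 lay above 0, with a median of 0.10, where 49.7% of all genes tested lay above 0. With pairing 8 of 12 lay above 0 and the median was 0.03. Iars1 (1033 ± 186 in wt, 1317 ± 319 in mCAT) and Lars1 (1424 ± 341 against 1695 ± 165) were each higher in mCAT in 5 of 6 pairs, with limma adjusted p of 0.494 and 0.526 with pairing. The 20 other serine, glycine and folate enzymes had a median of -3.9e-04, led by p by Mthfd1 (886 ± 287 against 1094 ± 212) and Mthfd2l (35.2 ± 12.05 against 23.1 ± 13.2). Of 10 mitochondrial chaperones and proteases 8 lay above 0, with a median of 0.11, and with pairing 7, with a median of 0.05. The co-chaperonin gene Hspe1 lay below, at 2795 ± 696 in wt and 1986 ± 299.6 in mCAT (log2 difference -0.45, SE 0.15, unadjusted p = 0.00762, limma adjusted p = 0.878). The protease gene Afg3l2 stood at 1795 ± 359 and 2201 ± 396.

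The largest genotype difference of the wider pathway was that of Hyou1, an ER chaperone gene, which did not pass the threshold. It ranged from 288 over 392 to 514 normalised counts in wt and from 511 over 708 to 1214 in mCAT libraries, so that the genotypes met only at wt 5 and mCAT 5. It was higher in mCAT in 5 of 6 pairs, with means of 381 ± 87.6 and 750.0 ± 233 (1.97-fold). Its log2 difference was 0.78 (SE 0.16, limma adjusted p = 0.0665), 0.73 with pairing (adjusted p = 0.119), 0.78 within C1 and 0.80 within C2. Leaving out 1 library at a time gave adjusted p from 0.0381, without mCAT 5, to 0.191, without mCAT 1. Of the genes of the early response to cell isolation, 1 of 12 was called, where 0.198% of all genes tested were. It was Btg2, an antiproliferative early gene, at 87072 ± 16155 in wt and 49817 ± 6158 in mCAT (log2 difference -0.79, limma adjusted p = 0.0224). The donors also differed in the CD45 allele, whose part in this difference was not tested. The early response list did not share the direction of Btg2, with 8 of the 12 above 0 and a median of 0.17. None of the 12 proliferation genes was called; their median was 0.07, and -0.0056 with pairing. The ER chaperone list as a whole had a median of 0.07, with 12 of 17 above 0, and Calr, the next by p, stood at 15066 ± 3329 in wt and 17946 ± 1641 in mCAT.

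**Figure D5:**
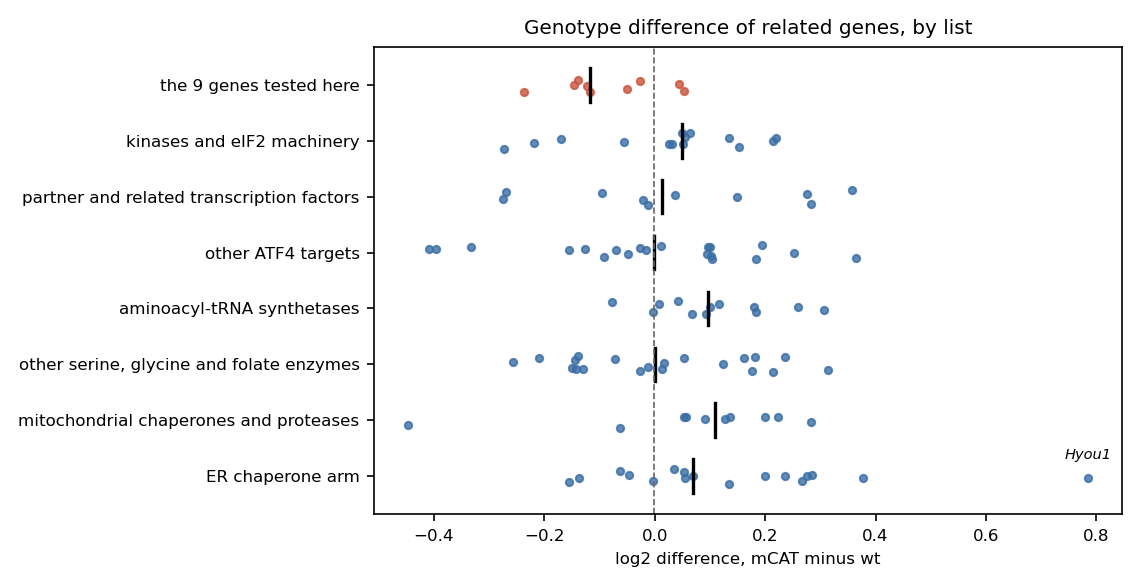
Log2 difference (mCAT minus wt, horizontal axis) of each gene tested, by list; bars mark medians of the lists and the dashed line that of all genes tested. The lists spread on both sides of 0, and Hyou1 lies apart at 0.78.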

How the data were processed

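RNA was sequenced with Smart-seq2 as paired-end reads, per the labels' protocols. The submitters' processing notes name FastQC, fastp, Salmon and GRCm39, without versions. The deposited values are on a log2 scale, although titled raw counts: they are not whole numbers, and 1 minimum recurs in all 14 libraries, as a variance-stabilising transformation would give. With e and f as 2 raised to a value and to that minimum, the normalised count is the square of e - f, divided by e. Depth comes from what 1 read is worth among low values, of which 57.7% to 79.6% lay within 0.15 of whole reads (30% by chance). It is a rough estimate, and it covers counting error only.

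Genes with a normalised count of at least 10 in at least 7 libraries (12096) were tested 2-sided with limma 3.58.1 in R 4.3.3 (trend and robust moderation, statmod 1.5.0) and Benjamini-Hochberg adjustment over all of them, at 0.05. The fit was tested on simulated data. Nothing states that libraries came from separate hosts, so p-values measure only the spread between these samples. Code stems were taken to pair libraries because the deviations from the group means correlated in each of the 6 pairs (0.232 to 0.659). Title numbers 1, 2 and 3 gave -0.294, 0.158 and 0.252, the last above stem C2_1 at 0.232. Title numbers 4 to 7 join the same libraries as stems do. These values do not set the 2 ways of pairing clearly apart, and pairing by stem remains an assumption. Alternatives were pairing, a term for the code series, filters, a pseudocount of 1, centring, moderation, and left-out libraries. Members and lists were chosen with earlier results of these data known. Named were the 10 genes, the 2 genes of smallest p in each pathway list, genes called, and the genes most correlated with a member, of which 1 is not reported here.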

Additional observations from a re-analysis of the deposited data

Results flagged for a closer look

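In wt 4, Trib3 stood at 863 normalised counts, with the next wt library at 418. Asns stood at 1936 in wt 4, with the next at 1170.2. Mthfd2 stood at 3041 in mCAT 4, with the next mCAT library at 2122. In each case the gap to the nearest library, as a share of the range of the 7 libraries (0.619, 0.589 and 0.602), was above the critical value of Dixon's test. Of 20 groups looked at (10 genes in each genotype), these 3 were found, and chance alone marks about 1 in 20 if values are normally distributed. The gaps were taken on normalised counts, not on the log2 values of the fits, which bring high values closer together. The 3 flags therefore concern the linear scale only. All 3 lie in the libraries of stem C1_5, which are partners.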

How the results depend on the processing

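None of the 9 genes was called under any of the 25 alternatives run, nor Chac1 with no filter; Atf5 did not pass the stricter filter. The number of genes called over the table was 24, and 38 with the code stem as a replicate block (pairing), 15 within series C1 and 9 within C2, the last 2 with fewer libraries. It ran from 18 to 25 when 1 library was left out. The number of other stress and one-carbon genes called was 0 and ran from 0 to 1 when 1 library was left out, the 1 being Hyou1 without mCAT 5. For Cat, the exact permutation p of 0.128 ran from 0.0490 (without mCAT 4) to 0.255 when 1 library was left out, and was 0.0312 with the pairs as a replicate block (sign flips). The signs of small differences turned. Trib3 (0.04) was -0.018 with the replicate block by code stem, and -0.10 to 0.23 when 1 library was left out. Shmt2 (0.05) was -0.068 within C1, and -0.0092 to 0.10 when 1 library was left out. Mthfd2 (-0.03) was 1.0e-04 without the C1_5 pair, an alternative chosen after seeing the data, and -0.13 to 0.10 when 1 library was left out. Atf5 (-0.05) ran from -0.10 to 0.014 when 1 library was left out, and was -0.13 (95% interval -0.84 to 0.58) as log2 of the normalised count plus 1. Atf4, Ddit3, Asns, Psat1 and Phgdh kept their sign in all 25. With the title number as a replicate block, Trib3 was 0.04 and Asns -0.24 (limma adjusted p = 0.626); the numbers of 1 to 3 join other libraries than the stems, and this block changed no call of the 9 genes. Depth sets the worth of 3 reads, from 2.37 to 7.82 normalised counts, and Chac1 was above it in 9 libraries.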

Other observations

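Within the 6 pairs, the genotype difference of some genes went with that of others. The difference (mCAT minus wt) of Phgdh and that of Mthfd2 had r = 0.964 (exact permutation p = 0.00556) and rho = 0.943 (p = 0.0167), with r = 0.963 without the 2 pairs farthest from the median. Both were lowest in C2_1, at -0.72 and -0.40 on the log2 scale, and highest in C2_2, at 0.49 and 0.28. The difference of Atf4 went against that of Mthfd2 (r = -0.898, exact permutation p = 0.0111, rho = -0.943, p = 0.0167, r = -0.604 without the 2 farthest pairs), with Atf4 at 0.41 in C2_1. None passed the adjustment over the 36 relations computed, the smallest adjusted p being 0.200 for r and 0.240 for rho.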
